A study of Rattus norvegicus with 13 samples.

Results

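The distal microRNA (miRNA) cluster of the imprinted Dlk1-Dio3 domain, from miR-379 to miR-410, was described in 4 types of primary rat cortical culture. Its members were every miRNA whose probes, by the coordinates in the array files (build rn4), fell in the stretch of chromosome 6 that holds these hairpins, star strands included and whatever their signal. There were 36 such miRNAs with 98 probes, of 350 miRNAs with 938 probes on the array. The probes lay between chr6:134388218-134425147, a stretch of 36.9 kb. Names are given without the prefix rno-.

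In mammals the Dlk1-Dio3 domain is imprinted: its protein-coding genes are expressed from the paternal chromosome, and its long noncoding RNAs, with the small RNAs embedded in them, from the maternal chromosome. The hairpins of the miR-379/miR-410 cluster are cut from such maternal transcripts and are best known from brain and placenta, and in rat neurons the transcription factor Mef2 drives the cluster after activity. Its best studied member, miR-134, holds back Limk1 mRNA in dendrites of rat hippocampal neurons and limits the size of dendritic spines.

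Cortex was taken from rats on postnatal day 1 for all cultures. The groups were neurons kept in medium with cytosine arabinoside against dividing cells (n = 3 arrays), oligodendrocytes shaken off mixed cultures at day 10 and replated (n = 3), astrocytes left after shaking overnight (n = 4), and microglia taken from the medium of mixed cultures (n = 3). The labels give 10 days in vitro for all 13 samples, while the culture protocol gives 7 days for microglia. The study's text calls the samples biological replicates, and each array received 100 ng of total RNA. In such bulk RNA, fewer cells of a type and less RNA per cell cannot be told apart.

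The level of a miRNA is the log2 of its mean probe signal relative to a brightness mark of the same array, namely the 75th percentile among those 119 miRNAs that every array detected. Signals below -8.04 were set to -8.04. Probes bind with unequal strength, so levels of different miRNAs are signals and give no order of abundance. Neurons and oligodendrocytes shared slide 1 and its scan session, and astrocytes and microglia shared slide 2. In the other pairs of types, slide and cell type cannot be told apart. miR-124, the classical neuronal miRNA, lay between 2.95 and 3.33 on the neuron arrays, between -1.72 and 1.21 on the oligodendrocyte arrays, between -5.0 and -4.86 on the astrocyte arrays, and at or below -7.10 on the microglia arrays. Oligodendrocyte array 2 stood apart, with 1.21 for miR-124 against -1.72 and -0.94 on arrays 1 and 3. It also had the lowest miR-338 of its group, 1.87 against 2.91 and 2.80. Its miR-142-3p, a myeloid miRNA, was the highest of the group, at -1.21 against -2.29 and -2.04. On the astrocyte arrays miR-142-3p was higher still, between -1.07 and -1.05, and on the microglia arrays it lay between 2.27 and 2.91.

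The mature sequences behind the main results follow, 5′ to 3′, from RefSeq (build GRCr8), all on the + strand of chromosome 6, with the seed (bases 2 to 8) in capitals. The arm of each array name was taken from the spacing of the probe coordinates along the cluster, and all 36 members were matched. For miR-495, which is listed without an arm, the spacing gave no support. The 36 seeds were all different, but 5 pairs of members were 1 seed base apart, and they are shown first.
miR-376a-3p: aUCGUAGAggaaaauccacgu
miR-376b-3p: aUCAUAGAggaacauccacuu
miR-376c-3p: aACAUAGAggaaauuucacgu
miR-379-5p: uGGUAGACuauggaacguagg
miR-411-5p: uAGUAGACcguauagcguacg
miR-300-3p: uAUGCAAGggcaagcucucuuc
miR-381-3p: uAUACAAGggcaagcucu
miR-543-3p: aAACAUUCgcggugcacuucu
miR-382-3p: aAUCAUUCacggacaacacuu
In these lines miR-376a-3p is the array's miR-376a, miR-381-3p its miR-381, and miR-543-3p and miR-382-3p its miR-543* and miR-382*. miR-376b-3p lies 1 seed base from both miR-376a-3p and miR-376c-3p. Over the 18 bases that RefSeq lists for miR-381-3p, 17 were the same in miR-300-3p. The next 4 were the members detected in all 4 types of culture.
miR-494-3p: uGAAACAUacacgggaaaccucu
miR-134-5p: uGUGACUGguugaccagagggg
miR-487b-3p: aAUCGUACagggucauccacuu
miR-409a-3p: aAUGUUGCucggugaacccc
The last 5 are further members with high signal in neurons and no detection elsewhere.
miR-329-3p: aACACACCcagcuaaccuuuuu
miR-410-3p: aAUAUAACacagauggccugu
miR-323-3p: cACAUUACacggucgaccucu
miR-495: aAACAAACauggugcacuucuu
miR-382-5p: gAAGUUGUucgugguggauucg

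Nearly the whole cluster was seen in neurons and little of it elsewhere. Of the 36 members, 33, 34 and 33 were detected on neuron arrays 1, 2 and 3, against 5, 7 and 4 on the oligodendrocyte arrays, 4, 4, 2 and 4 on the astrocyte arrays, and 4, 4 and 3 on the microglia arrays. These were 91.7% to 94.4% of the members in neurons and 5.56% to 19.4% in the glial cultures. Over all 350 miRNAs, 68.9% to 73.7% were detected per neuron array and 45.7% to 59.4% per glial array. On all 3 neuron arrays and on no other array, 25 members were detected, as were 39 of the 350 miRNAs (11.1%).

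**Figure D1:**
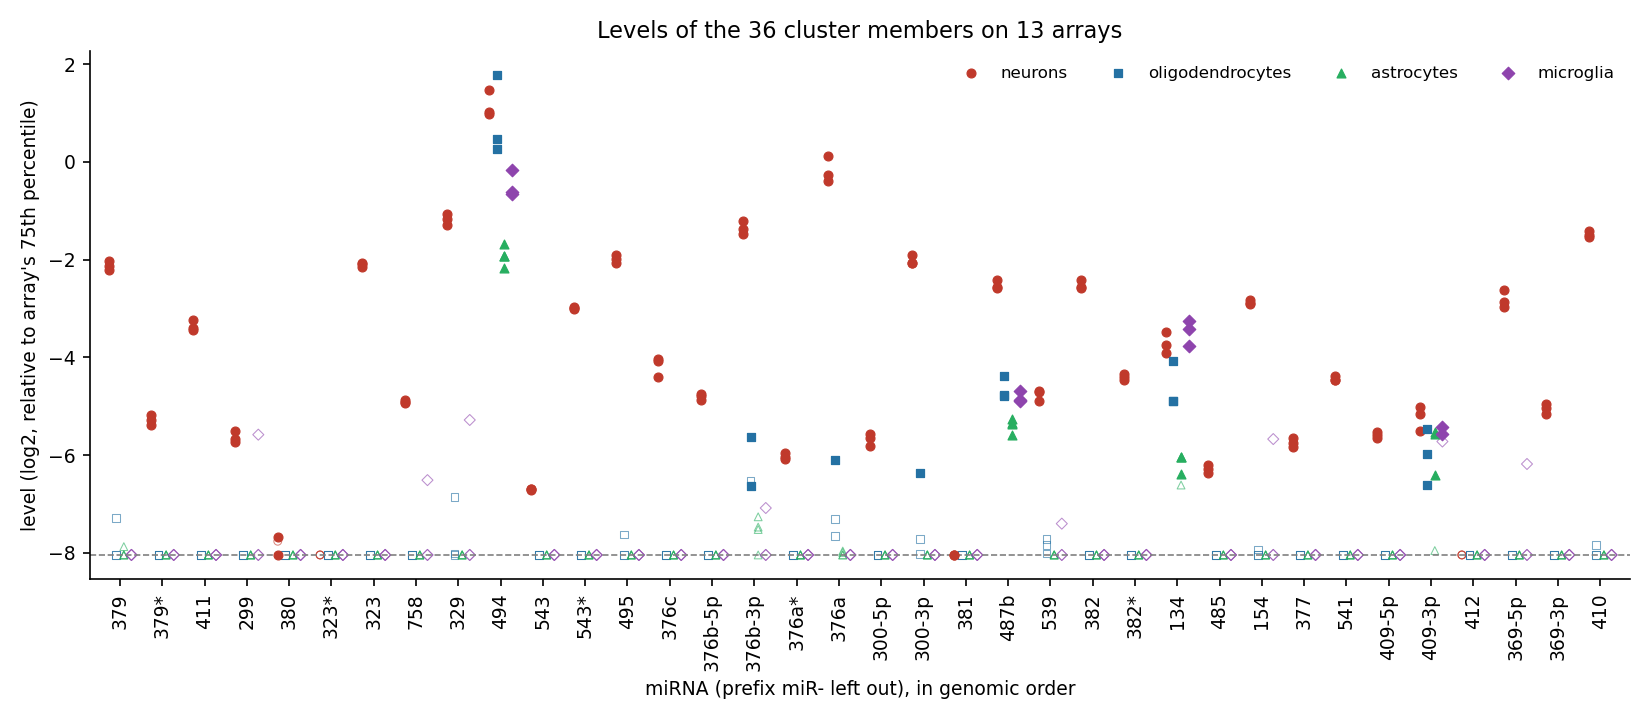
Level (log2, relative to the array's 75th percentile) of the 36 members in genomic order, 1 point per array for neurons (red circles), oligodendrocytes (blue squares), astrocytes (green triangles) and microglia (purple diamonds), filled where detected and open where not, with the lower limit of -8.04 dashed. The neuron points stand clear of the limit for 32 members, and most other points lie on it.

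Differences between types were tested with limma over the 268 miRNAs detected on at least 3 arrays, with Benjamini-Hochberg adjustment and a threshold of 0.05. Of the 36 members, 32 entered the test. Of these, 25 were detected on neuron arrays alone, entered only through them and so had to differ. miR-376b-3p, miR-376a and miR-300-3p, with 1 or 2 oligodendrocyte arrays besides, also entered only through the neuron arrays. The counts that follow describe these members and are no independent support. Against oligodendrocytes, on the same slide, 30 members were higher in neurons, beside 58.2% of all tested miRNAs, and 0 were lower, beside 19.8%. Against astrocytes 31 were higher (background 56.0%) and 0 lower (background 25.4%), and against microglia 30 were higher (background 52.2%) and 0 lower (background 31.0%). At an unadjusted p under 0.05, limma also gave 0 members lower in neurons in each of these 3 comparisons. Higher in neurons than in each other type, with at least 1 in log2 each time, were 29 members, against 73 of 268 miRNAs (27.2%). With another background correction, normexp, the 3 counts of members higher in neurons were 15, 19 and 15, and 9 members exceeded all 3 other types. Under normexp the median differences over all tested miRNAs were 0.05, 0.02 and -0.33. The shares of all tested miRNAs called were not counted there, so these counts cannot be set beside the shares above.

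The median difference over the 32 members was 3.41 in log2 for neurons minus oligodendrocytes, 3.43 for neurons minus astrocytes and 3.41 for neurons minus microglia. Over all 268 tested miRNAs these medians were 0.79, 0.54 and 0.58. These fitted values take undetected arrays at the limit or at their dim signal; with members that the second type did not detect taken at the lower bounds given next, the members' medians were 3.17, 3.34 and 2.53. For a member not detected in a type, the fold was taken against the dimmest signal detected on that type's arrays and is a lower bound. Of 25 such members, neurons exceeded oligodendrocytes by at least 2.13-fold to at least 81.7-fold (median 10.2). Of 28, neurons exceeded astrocytes by at least 2.37-fold to at least 213-fold (median 12.6), and of 28, microglia by at least 1.35-fold to at least 124-fold (median 7.20). The 2 members with a bound under 2-fold against microglia were miR-543 (1.35) and miR-485 (1.79). Where an adjusted p stands beside a bound below, limma gave it for the fitted difference and not for the bound. For members that entered the test only through neurons, such p-values, and those of fitted differences between neurons and another type, are no independent support.

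**Figure D2:**
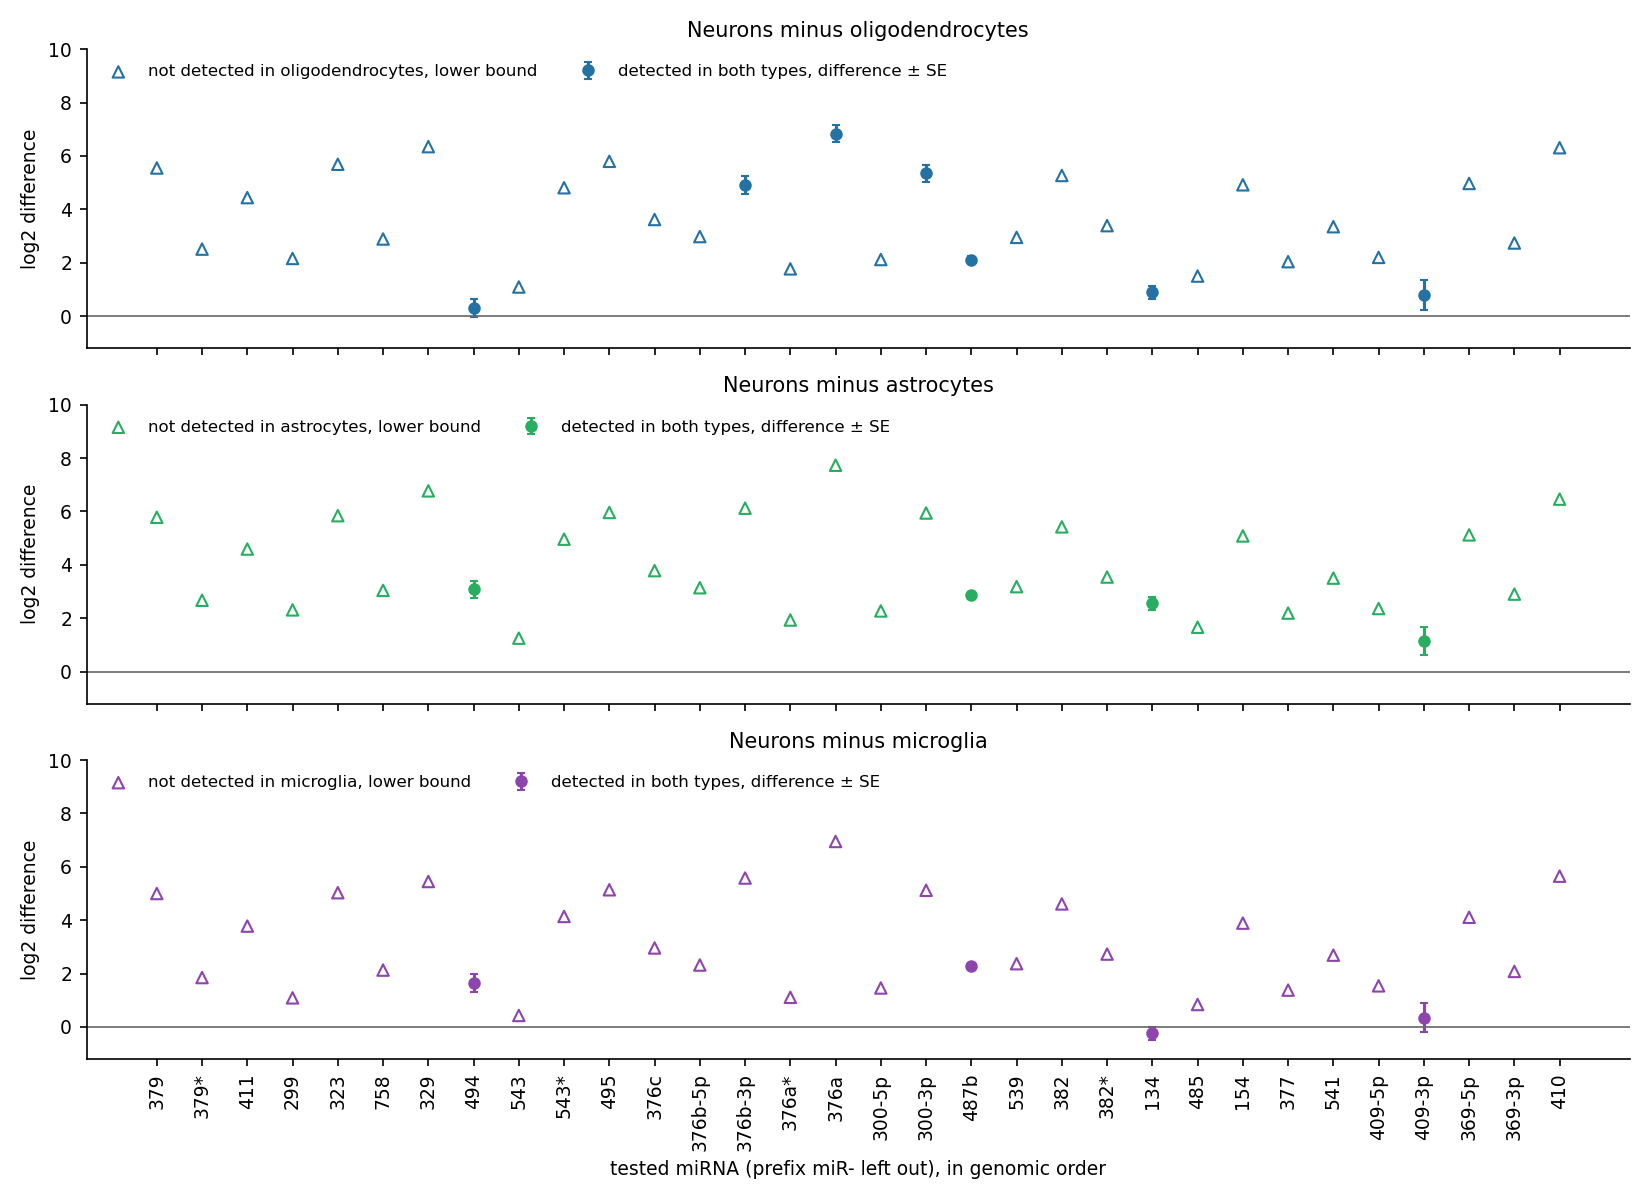
Difference in log2 of the 32 tested members, neurons minus oligodendrocytes (top), neurons minus astrocytes (middle) and neurons minus microglia (bottom), as filled circles with SE where both types detected the miRNA and as open triangles, lower bounds, where the second type did not. The filled points nearest 0 are miR-494 and miR-409-3p against oligodendrocytes and miR-134 and miR-409-3p against microglia.

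miR-376a, whose hairpins are edited from adenosine to inosine in mouse and human brain, had levels of 0.12, -0.40 and -0.27 on the 3 neuron arrays. It stood at -7.66, -6.10 and -7.31 on the oligodendrocyte arrays, with detection on array 2 alone, and was detected on no astrocyte or microglia array. The neuron arrays lay above all others. The fitted difference from oligodendrocytes was 6.84 in log2 (SE 0.311, limma adjusted p = 3.49e-09), with 2 of the 3 oligodendrocyte values below detection. Neurons exceeded astrocytes by at least 213-fold (limma adjusted p = 4.52e-10) and microglia by at least 124-fold (limma adjusted p = 5.47e-10).

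miR-329, which is induced with miR-134 by activity in rat neurons, had levels of -1.30, -1.07 and -1.16 in neurons. It was detected on no other array, and neurons exceeded oligodendrocytes by at least 81.7-fold (limma adjusted p = 2.04e-06), astrocytes by at least 109-fold (limma adjusted p = 6.85e-07) and microglia by at least 43.6-fold (limma adjusted p = 3.35e-06). Its values below detection were -8.04, -6.85 and -8.01 on the oligodendrocyte arrays and -8.04, -8.04 and -5.28 on the microglia arrays. The highest of them, on microglia array 3, lay below every neuron array.

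miR-410, the last hairpin of the cluster, had levels of -1.41, -1.50 and -1.54 in neurons. miR-379, the first, had -2.03, -2.14 and -2.21. Both ends of the cluster were thus detected on neuron arrays and on no other. For miR-410 neurons exceeded oligodendrocytes by at least 79.2-fold (limma adjusted p = 6.06e-15), and for miR-379 by at least 46.9-fold (limma adjusted p = 6.39e-11).

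Between the ends, miR-323 had levels of -2.16, -2.06 and -2.08 in neurons, miR-495 had -2.07, -1.90 and -1.98, and miR-382 had -2.42, -2.56 and -2.58. On the oligodendrocyte arrays their values, all below detection, were -8.04 on each array apart from -7.62 for miR-495 on array 2. The bounds for neurons over oligodendrocytes were at least 51.6-fold for miR-323 (limma adjusted p = 2.16e-15), at least 55.8-fold for miR-495 (5.56e-13) and at least 38.6-fold for miR-382 (4.61e-15). None of the 3 was detected on an astrocyte or microglia array. The small p-values follow in part from setting undetected arrays to the same limit, which leaves them with little or no spread.

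The members nearest the detection limit on the neuron arrays, among those that all 3 detected, were miR-543, miR-485, miR-376a*, miR-377 and miR-300-5p. Their neuron means were -6.70, -6.29, -6.02, -5.75 and -5.67, each with an SD between 0.01 and 0.12 (n = 3). These levels average over probes, and the longest probe alone was brighter. Its neuron means were, in the same order, -5.07, -5.31, -4.63, -5.4 and -5.55. miR-485, which targets the synaptic vesicle protein gene Sv2a in rodent neurons, was detected on no glial array, as were the other 4. Near the detection limit the bounds were low: neurons exceeded oligodendrocytes by at least 2.13-fold for miR-543 (limma adjusted p = 2.11e-10) and at least 4.34-fold for miR-300-5p (limma adjusted p = 2.43e-11).

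The remaining neuron-only members were miR-379*, miR-411, miR-299, miR-758, miR-543*, miR-376c, miR-376b-5p, miR-539, miR-382*, miR-154, miR-541, miR-409-5p, miR-369-5p and miR-369-3p. Their neuron means ran from -5.63 (miR-299) to -2.82 (miR-369-5p). miR-541, which targets synapsin I in rat PC12 cells, had -4.38, -4.47 and -4.47 in neurons and was at the limit of -8.04 on all other arrays. Neurons exceeded oligodendrocytes by at least 30.3-fold for miR-154 (limma adjusted p = 1.93e-06), at least 31.4-fold for miR-369-5p (limma adjusted p = 2.33e-07) and at least 28.0-fold for miR-543* (limma adjusted p = 3.56e-15).

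Microglia array 3 carried signal without detection for 7 members, more than any other array of its group: array 1 had 1 such member and array 2 had none. miR-299 stood at -5.58 there and at -8.04 on the other microglia arrays, against -5.74, -5.50 and -5.66 in neurons, so that the groups overlapped. Its difference of 1.59 (limma adjusted p = 0.0129) missed the threshold without microglia array 1 (1.20, adjusted p = 0.0582) or without array 2 (1.20, adjusted p = 0.0579), and was 2.45 without array 3 (adjusted p = 5.75e-11). No microglia array detected miR-299, and its bound was at least 2.13-fold. For miR-154, miR-329 and miR-369-5p, likewise undetected in microglia, the bounds were at least 14.8-fold, 43.6-fold and 17.2-fold; their fitted differences were 4.38, 5.94 and 4.60, and 5.22, 6.91 and 5.27 without microglia array 3.

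In all 4 types, 4 members were detected, and 3 of them were the tested members not higher in neurons than in each other type. miR-494 was detected on all 13 arrays, with levels of 1.47, 1.02 and 0.98 in neurons, 0.27, 1.78 and 0.47 in oligodendrocytes, -1.92, -1.69, -2.17 and -1.93 in astrocytes, and -0.62, -0.16 and -0.65 in microglia. Oligodendrocyte array 2 was the highest of all, and the neuron and oligodendrocyte arrays overlapped. The difference between neurons and oligodendrocytes was 0.32 (SE 0.337, limma adjusted p = 0.416), and without oligodendrocyte array 2 it was 0.79 (limma adjusted p = 0.00451). Neurons were higher than astrocytes by 3.08 (SE 0.316, limma adjusted p = 3.37e-06) and higher than microglia by 1.63 (SE 0.337, limma adjusted p = 8.42e-04). With arrays scaled on all 350 miRNAs, the difference from oligodendrocytes was -0.69 (limma adjusted p = 0.0219) and that from microglia 0.43 (limma adjusted p = 0.116).

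miR-134, the regulator of Limk1, was not called higher in neurons than in microglia. It had -3.48, -3.92 and -3.75 in neurons, -4.89, -4.07 and -4.89 in oligodendrocytes, -6.04, -6.04, -6.61 and -6.38 in astrocytes, and -3.76, -3.42 and -3.26 in microglia; astrocyte array 3 alone did not detect it. Neurons and microglia overlapped, with a difference of -0.24 (SE 0.246, limma adjusted p = 0.393). This depended on scaling: it was -1.44 when arrays were scaled on all 350 miRNAs (limma adjusted p = 1.13e-05), -1.52 with quantile normalization (limma adjusted p = 1.76e-05), -1.28 in the deposited table (limma adjusted p = 3.49e-06) and 0.72 with no scaling (limma adjusted p = 0.0271). Neurons were above astrocytes by 2.55 (SE 0.230, limma adjusted p = 1.17e-06). They were also above oligodendrocytes by 0.90 (SE 0.246, limma adjusted p = 0.00585), close to the median of 0.79 over all tested miRNAs, and this difference was -0.11 with the scaling on all 350 miRNAs.

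miR-487b was detected on all 13 arrays and was higher in neurons than in every other type. It had -2.42, -2.58 and -2.57 in neurons, -4.78, -4.38 and -4.77 in oligodendrocytes, -5.58, -5.35, -5.37 and -5.27 in astrocytes, and -4.69, -4.87 and -4.89 in microglia. The neuron arrays overlapped with no other group. The differences were 2.12 from oligodendrocytes (SE 0.122, limma adjusted p = 2.84e-08), 2.87 from astrocytes (SE 0.114, limma adjusted p = 8.31e-10) and 2.29 from microglia (SE 0.122, limma adjusted p = 7.15e-09).

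miR-409-3p was dim in all types, with -5.01, -5.51 and -5.16 in neurons, -6.60, -5.47 and -5.97 in oligodendrocytes, -5.57, -5.52, -7.95 and -6.41 in astrocytes, and -5.56, -5.42 and -5.72 in microglia. Astrocyte array 3 and microglia array 3 did not detect it. The neuron arrays overlapped with the oligodendrocyte and microglia arrays and lay just above the astrocyte arrays. None of its neuron differences passed: 0.79 from oligodendrocytes (SE 0.548, limma adjusted p = 0.211), 1.14 from astrocytes (SE 0.512, limma adjusted p = 0.0596) and 0.34 from microglia (SE 0.548, limma adjusted p = 0.581). The difference from astrocytes passed without astrocyte array 1 (1.37, limma adjusted p = 0.0305) or array 2 (1.40, limma adjusted p = 0.0277).

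Outside neurons, 3 further members were detected on oligodendrocyte arrays alone. All 3 entered the test only through the neuron arrays, so their p-values for neurons against oligodendrocytes are no independent support. miR-376b-3p was detected on oligodendrocyte arrays 1 and 2, with levels of -1.21, -1.38 and -1.47 in neurons and -6.63, -5.62 and -6.52 in oligodendrocytes, a difference of 4.91 (SE 0.322, limma adjusted p = 7.62e-08). miR-300-3p was detected on oligodendrocyte array 2, with -1.90, -2.07 and -2.06 in neurons and -7.72, -6.37 and -8.02 in oligodendrocytes, a fitted difference of 5.36 (SE 0.319, limma adjusted p = 3.57e-08) with 2 of the 3 oligodendrocyte values below detection. With miR-376a, oligodendrocyte array 2 was the highest of its group for all 3. On that array they reached 5.18% (miR-376b-3p), 4.87% (miR-300-3p) and 1.65% (miR-376a) of their mean neuronal level. Of the 4 neuron markers, miR-124 and miR-137 reached 26.4% and 28.7% there, against 3.45% and 5.73% on array 1 and 5.96% and 10.2% on array 3. miR-128 reached 5.76% on array 2, against 3.61% and 4.23% on arrays 1 and 3, and miR-218 was level over the 3 arrays, at 20.8%, 20.6% and 21.2%. The part of these markers' cells in the members' values was not tested. miR-494 reached 154% of its neuronal level on array 2, 54.1% on array 1 and 62.2% on array 3.

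**Figure D3:**
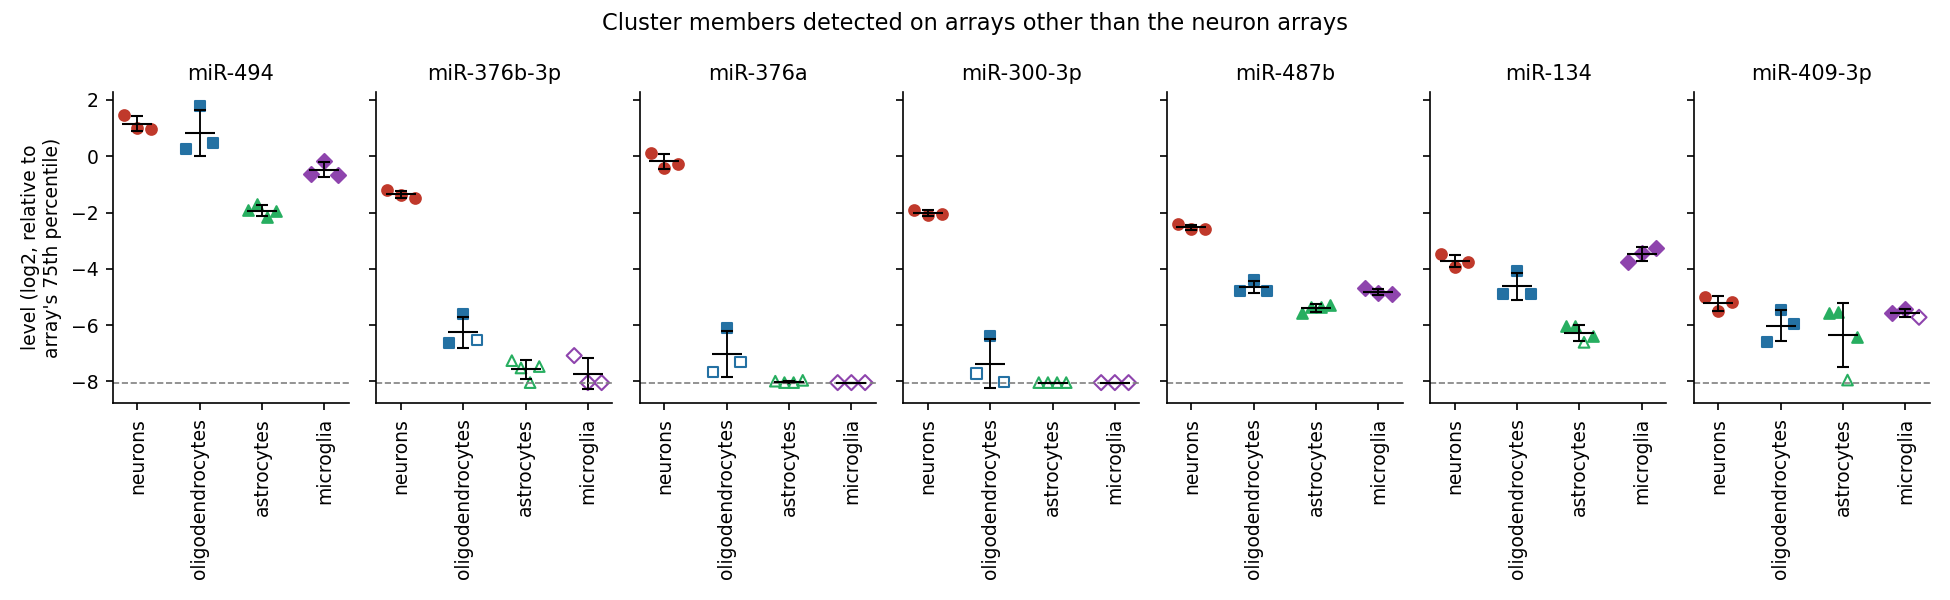
Level (log2, relative to the array's 75th percentile) of the 7 members detected on at least 1 array other than the neuron arrays, by type, with neurons at the left of each panel, filled points detected, open points not detected, and black bars for the mean and SD. miR-494, miR-487b, miR-134 and miR-409-3p carry signal in all types, while miR-376b-3p, miR-376a and miR-300-3p are near the limit outside neurons.

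The array holds several probes per miRNA. For all 36 members, the probes shared their upper coordinate and differed in how many bases they spanned. Single probes were tested in the same way, over 670 probes of the tested miRNAs, an analysis chosen after the values were seen. Of 82 probes of members, 68 were higher in neurons than in oligodendrocytes, 71 than in astrocytes and 67 than in microglia; over all 670 probes these shares were 47.2%, 47.6% and 44.9%. In 28 of the 32 tested members the longest probe gave a larger difference between neurons and oligodendrocytes than the shortest. The same count was not made over all tested miRNAs, so it is not shown to be particular to the cluster.

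The probes of miR-487b did not agree. The probe spanning 14 bases had signals of 102.1, 148.2 and 77.3 on the neuron arrays and 100.5, 71.5 and 96.9 on the oligodendrocyte arrays, a scaled difference of -0.15 (SE 0.155, limma adjusted p = 0.438). The probe spanning 16 bases had 319.3, 579.5 and 331.5 on the neuron arrays and 19.9, 12.5 and 18.5 on the oligodendrocyte arrays. The longer probe therefore separated the groups and the shorter one did not: its difference was 4.16 (SE 0.262, limma adjusted p = 1.69e-07), and that of the 15-base probe 3.42 (SE 0.245, limma adjusted p = 4.99e-07).

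miR-409-3p showed the same split. Its 14-base probe had signals of 64.4, 92.9 and 60.4 on the neuron arrays, against 12.7, 14.8 and 18.6 on the oligodendrocyte arrays. Its 12-base probe had 10.7, 13.7 and 15.0 on the neuron arrays, against 12.7, 14.7 and 18.3 on the oligodendrocyte arrays. With the 14-base probe neurons were higher than oligodendrocytes by 1.83 (SE 0.515, limma adjusted p = 0.00969), than astrocytes by 2.18 (SE 0.482, limma adjusted p = 0.00223) and than microglia by 1.38 (SE 0.515, limma adjusted p = 0.0342). The 12- and 13-base probes passed in none of the 3 comparisons, with differences between -1.0 and 0.36.

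The probes of miR-494 and of miR-134 gave similar differences within each member. For miR-494 the 13- and 14-base probes differed between neurons and oligodendrocytes by 0.36 and 0.20 (limma adjusted p = 0.411 and 0.747). For miR-134 the 11- and 12-base probes gave -0.23 and -0.24 between neurons and microglia (limma adjusted p = 0.382 and 0.529). The 4 members detected in all types had probes of 11 to 16 bases. The 25 neuron-only members had probes of 14 to 22 bases, with a longest probe of at least 16. Short probes did not always go with detection in all types: the 4 untested members, detected on no glial array, had probes of 11 to 17 bases. For miR-543, a neuron-only member, only the 18- and 19-base probes carried signal above the limit in neurons. The 19-base probe had signals of 30.3, 54.7 and 35.4 on the neuron arrays, against -2.0, 1.3 and 0.0 on the oligodendrocyte arrays.

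**Figure D4:**
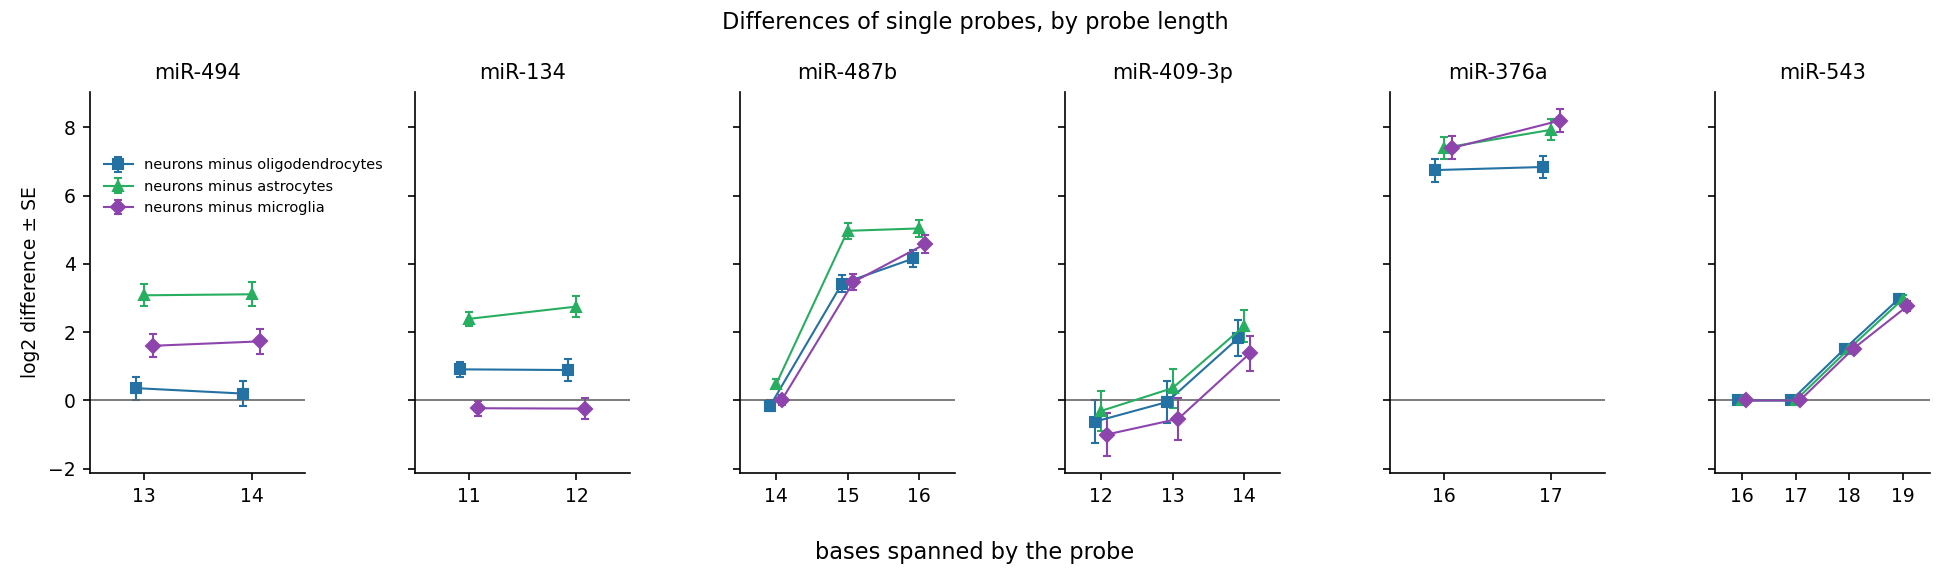
Difference in log2 (with SE) between neurons and oligodendrocytes (blue squares), astrocytes (green triangles) and microglia (purple diamonds) for single probes of 6 members, by the number of bases the probe spans. The lines of miR-487b and miR-409-3p climb with probe length from 0.47 or less, those of miR-494, miR-134 and miR-376a change by less than 1, and the 2 shorter probes of miR-543 have no signal above the limit in any type.

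Of 9 hairpins both strands were on the array, and 17 of these 18 strands were detected on all neuron arrays. The exception was miR-323*, at the limit on all arrays, while miR-323 was detected on all neuron arrays. Apart from miR-323*, the star strands were detected on all neuron arrays, as were their partners. There miR-379* had -5.28, -5.18 and -5.38, and miR-543* had -3.02, -2.98 and -2.96. miR-376a* had -6.07, -6.03 and -5.95, and miR-382* had -4.47, -4.33 and -4.41. On glial arrays 0 of the 9 strands from the 5′ arm were detected, against 4 from the 3′ arm, namely miR-376b-3p, miR-376a, miR-300-3p and miR-409-3p. For miR-409 the strands differed in pattern: miR-409-5p was detected on neuron arrays alone, at -5.52, -5.65 and -5.59, with a bound of at least 4.61-fold over oligodendrocytes (limma adjusted p = 2.52e-12), while miR-409-3p was detected in all types. The difference between the 2 patterns was not tested.

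The other 4 members were not tested. miR-323* and miR-412 were detected on no array. miR-380 and miR-381 were each detected on 2 neuron arrays, with levels of -7.76, -7.67 and -8.04 for miR-380 and -8.04 on all 3 for miR-381, whose shorter probes pull down the mean. The 14-base probe of miR-381 alone had signals of 12.8, 18.4 and 9.9 on the neuron arrays, against 3.9, -0.7 and 1.3 on the oligodendrocyte arrays. The 17-base probe of miR-380 had 10.9, 22.8 and 11.8 on the neuron arrays, against -0.9, -0.7 and -3.2 on the oligodendrocyte arrays.

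Among the glial types few members were called. Only 7 members were detected on any glial array. The 25 detected on neuron arrays alone could hardly be called here, so few calls do not show that the glial types were alike. Oligodendrocytes were higher than astrocytes for 5 members (background 30.6%) and lower for 0 (background 25.7%), and at an unadjusted p under 0.05 limma gave 6 and 0. The 5 were miR-494 (2.77, SE 0.316, adjusted p = 2.03e-05), miR-134 (1.65, SE 0.230, adjusted p = 9.39e-05), miR-487b (0.75, SE 0.114, adjusted p = 1.80e-04), miR-376b-3p (1.31, SE 0.301, adjusted p = 0.00317) and miR-376a (0.98, SE 0.291, adjusted p = 0.0132). The last 2 were detected on no astrocyte array, and their lower bounds came to 2.33-fold and 1.85-fold. With normexp, miR-134 (0.40, adjusted p = 0.233) and miR-487b (0.25, adjusted p = 0.371) missed the threshold in limma, as did miR-487b with no scaling (0.64, adjusted p = 0.13). Without oligodendrocyte array 2 and astrocyte array 3 together, a setting chosen after seeing the data, miR-376b-3p missed the threshold (0.81, limma adjusted p = 0.0515). The call for miR-376a was lost without astrocyte array 1 or array 4 (0.84 each, limma adjusted p = 0.0511 and 0.0534).

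Oligodendrocytes were higher than microglia for 3 members (background 32.1%): miR-494 by 1.32 (SE 0.337, limma adjusted p = 0.00514), miR-376b-3p by 1.46 (SE 0.322, limma adjusted p = 0.00188) and miR-376a by 1.02 (SE 0.311, limma adjusted p = 0.0140). Neither miR-376b-3p nor miR-376a was detected in microglia, and their lower bounds came to only 1.59-fold and 1.08-fold. On the microglia arrays miR-376a was at the limit of -8.04 each time, and miR-376b-3p had -7.08, -8.04 and -8.04. These 2 differences thus depend on the limit, that of miR-376b-3p in part. Oligodendrocytes were lower than microglia for 1 member (background 29.5%), miR-134, with a difference of -1.13 (SE 0.246, limma adjusted p = 0.00167). With no scaling it was -0.58 (limma adjusted p = 0.0962). Without oligodendrocyte array 3, miR-300-3p passed as well, higher in oligodendrocytes than in astrocytes by 1.04 (limma adjusted p = 0.00996) and than in microglia by 1.04 (limma adjusted p = 0.0104).

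Astrocytes and microglia, on the same slide, differed in 3 members, all lower in astrocytes (background 35.8%), and 0 were higher (background 29.9%), also at an unadjusted p under 0.05 in limma. miR-134 differed by -2.78 (SE 0.230, adjusted p = 7.26e-07), miR-494 by -1.45 (SE 0.316, adjusted p = 0.00161) and miR-487b by -0.57 (SE 0.114, adjusted p = 8.88e-04). For each of the 3, the astrocyte and microglia arrays did not overlap, but with no scaling the difference of miR-487b was 0.09 (limma adjusted p = 0.952).

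The cluster's share of the summed miRNA signal was 3.73%, 3.21% and 3.08% on the neuron arrays, 1.19%, 3.1% and 1.34% on the oligodendrocyte arrays, 0.229%, 0.268%, 0.186% and 0.230% on the astrocyte arrays, and 0.516%, 0.796% and 0.523% on the microglia arrays. Oligodendrocyte array 2 reached the range of neurons. Without miR-494 the shares were 2.35%, 2.19% and 2.11% in neurons, 0.115%, 0.193% and 0.113% in oligodendrocytes, 0.0550%, 0.0575%, 0.0321% and 0.0512% in astrocytes, and 0.0977%, 0.127% and 0.151% in microglia. With that member left out, every neuron array lay above every other array. These are shares of signal over probes of unequal strength, not of molecules, and were not tested.

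**Figure D5:**
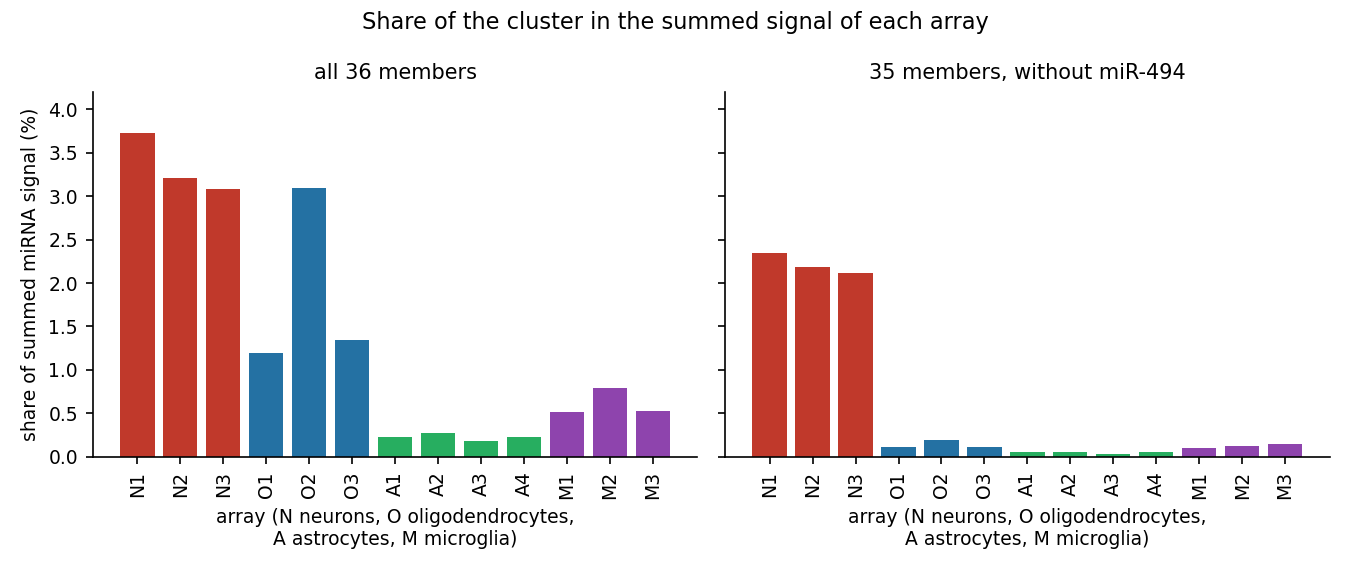
Share (%) of the summed miRNA signal held by the cluster on each array, neurons at the left, for all 36 members (left panel) and without miR-494 (right panel). Oligodendrocyte array 2 reaches 3.1% with miR-494 and 0.193% without it, and the neuron arrays stay above 2.1% in both panels.

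The proximal miRNAs of the same domain, chr6:134141380-134210263, had 13 members on the array, of which 9 were tested. Of these, 6 were detected on neuron arrays alone and so had to differ. miR-434 and miR-136, with 2 oligodendrocyte arrays each besides, also entered only through the neuron arrays. The counts that follow are therefore no independent support. All 9 were higher in neurons than in oligodendrocytes (background 58.2%), astrocytes (background 56.0%) and microglia (background 52.2%), and 8 were higher by at least 1 in log2 each time (background 27.2%). With undetected members at their bound, their median difference between neurons and oligodendrocytes was 5.19, against 3.17 in the distal cluster. Among them, miR-434 had levels of 0.67, 0.75 and 0.83 in neurons and miR-127 had 0.23, 0.07 and 0.08. Outside neurons 3 proximal members were detected: miR-127 on all 3 oligodendrocyte arrays and on astrocyte array 4, and miR-434 and miR-136 on oligodendrocyte arrays 2 and 3. The oligodendrocyte levels were -7.28, -5.47 and -6.64 for miR-434, -6.85, -5.53 and -6.90 for miR-127, and -7.07, -4.72 and -6.45 for miR-136, array 2 being the highest each time. On no array was a proximal member detected in microglia, where 4 distal members were. Whether the clusters differ was not tested.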

How the data were processed

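Cy3-labelled RNA of each sample went onto an Agilent rat miRNA array of its own. Per the file headers, Agilent Feature Extraction 9.5.3.1 made the deposited spot intensity values, subtracting background with spatial detrending. It also gave a summed intensity and a detection call per miRNA; arrays were not scaled to each other. The authors' series table of log2 values has equal quantiles in all columns, its method is not given in the sources used here, and it served as an alternative only.

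Spots marked as outliers were left out, and the rest averaged by probe, then by miRNA. Signals were scaled per array as the report defines, limited below at 0.38% of the scaling mark (the median, over arrays, of the dimmest detected signal) and log2 transformed. limma 3.58.1 in R 4.3.3 fitted all 268 tested miRNAs on the means of the 4 types. A slide term could not be fitted. Fold bounds take, per array, the higher of the dimmest detected level and the member's own. The number of arrays limits the precision. The fit was tested on simulated data.

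The cluster's members, the named miRNAs and the marker lists were chosen with earlier results of these data known. The rule named 7 marker members, those detected outside neurons or not higher in neurons than in each other type, the 5 highest and 5 lowest neuronal levels, strand pairs, near-identical seeds and undetected members. The remaining neuron-only members and single probes were named with their values in view. Alternatives covered background, scaling, probe summary, floor, filter, spread, arrays left out, a replicate block and the deposited table. Tables and plots used Python 3.11.15, pandas 2.3.3, numpy 2.4.6 and matplotlib 3.10.9.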

Additional observations from a re-analysis of the deposited data

Results flagged for a closer look

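Among the astrocyte arrays, array 3 detected 2 cluster members and the other 3 arrays detected 4 each. This gap to the nearest array, divided by the range of the group, was 1.00, above the limit used for 4 samples. With the other 3 arrays tied, the ratio is 1.00 whatever the size of the gap, which here was 2 members, so it says little of how far array 3 lies from the rest. Over all 350 miRNAs, array 3 detected 160, against 192 to 208 on the other astrocyte arrays, and it had 528 outlier spots, against 183 to 350. The part of these in the count was not tested.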

How the results depend on the processing

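Counts of members are given for neurons minus each type unless another pair is named. The shares of all tested miRNAs called are not given for these settings. With normexp, higher counts were 15 (oligodendrocytes), 19 (astrocytes) and 15 (microglia, with 1 lower), 9 members exceeded all 3 other types, oligodendrocytes were higher than astrocytes for 1 and than microglia for 1, 11 were lower in astrocytes than in microglia, and the cluster's share was 0.638% in astrocytes and 1.16% in microglia. Restricting the test to miRNAs detected on all arrays left 2 members: 1, 2 and 2 were higher in neurons, 1 than in each other type, and oligodendrocytes were higher than astrocytes for 2 and than microglia for 1, with 0 lower. When arrays were scaled on the 75th percentile of all 350 miRNAs, 1 member was lower in neurons than in oligodendrocytes (miR-494, -0.69, limma adjusted p = 0.0219) and 1 than in microglia (miR-134, -1.44, limma adjusted p = 1.13e-05). Quantile normalization gave 2 lower in neurons than in microglia and 2 lower in oligodendrocytes than in microglia. The deposited table gave 2 lower in neurons than in microglia, 9 higher in oligodendrocytes than in microglia, and 4 higher and 5 lower in astrocytes than in microglia. Without scaling, 0 were lower in oligodendrocytes than in microglia, and fitting only the groups compared gave 1 higher. The shortest probe, chosen after seeing the data, left 19 higher than in each other type. Between neurons and oligodendrocytes, the sign turned for miR-134 (-0.11, -0.02 and -0.01), miR-409-3p (-0.22, -0.47 and -0.30) and miR-494 (-0.69, -0.25 and -0.16) under that scaling, quantile normalization and the deposited table. These moved the median of all tested miRNAs by -0.86, -0.79 and -0.86. It also turned with normexp for miR-376a* (-0.01), miR-485 (-0.02) and miR-543 (-0.09), and with the shortest probe for miR-409-3p (-0.62) and miR-487b (-0.15). The cause was not tested. Leaving out each array in turn gave 30 to 31 members higher than in oligodendrocytes, 31 to 32 than in astrocytes, 29 to 30 than in microglia and 28 to 29 than in each. It gave 4 to 6 higher in oligodendrocytes than in astrocytes and 3 to 4 than in microglia, and shares of 3.15% to 3.47% in neurons, 1.26% to 2.22% in oligodendrocytes, 0.215% to 0.243% in astrocytes and 0.519% to 0.659% in microglia. Same-numbered arrays of different types had correlations of -0.34 to 0.20 in their deviations, and 11 of 36 correlated best with their own number; with the replicate block, the counts were again 30, 31 and 30 higher in neurons and 29 than in each other type.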
